A study of Mus musculus with 3 samples.

Results

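TBX5 is a T-box transcription factor needed for septation, conduction and contraction of the heart, and TBX3 is a related T-box factor known as a repressor that keeps pacemaker and conduction tissue distinct from working myocardium. Both recognise similar DNA. Enhancers are stretches of DNA away from gene starts that raise transcription, and active ones usually carry acetylated histone H3 (H3K27ac, H3K9ac) and H3K4me1, while H3K4me3 is best known from promoters.

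The regions described here are the TBX5 peaks away from gene starts that the authors classed as active, that overlapped a TBX3 region and that overlapped an H3K9ac region. They numbered 1062 of 12436 TBX5 peaks (8.54%), 17.0% of the 6237 active non-promoter peaks and 31.6% of the 3362 peaks with TBX3 overlap. TBX5 binding was measured by ChIP-seq in dissected whole hearts of E14.5 embryos of CD-1, an outbred mouse stock. There were 2 ChIP replicates, made with an antibody against TBX5, and 1 input, and no genotype or treatment is given for any sample. Binding in whole hearts cannot be assigned to one cell type. The histone mark and TBX3 regions were not measured in these samples, and the tissue and stage they come from are not known here. The authors called peaks once on the pooled replicates, and no value per replicate was used here. No spread between replicates, and no test over samples, could therefore be computed for any value that follows. The 3 other classes of active non-promoter peaks, formed by TBX3 and H3K9ac overlap, serve as the comparison.

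The class names were checked against the columns. All 6237 active non-promoter peaks had H3K27ac in at least 1 of its 2 region files and none had H3K27me3, and no other non-promoter peak met both conditions. H3K27ac, H3K9ac, TBX3 overlap, the lack of H3K27me3 and a summit over 2000 bp from the assigned start thus belong to the choice of the regions. Fold enrichment, H3K4me1, H3K4me3, H3K9me3 and the position beyond that limit do not. Peak width was not used directly, but the choice rests on overlaps whose rule is unknown, so width may have entered it.

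Sequence was at hand for the few regions that reach into the 250 bases before a start in RefSeq. Of the 1062 regions 26 did so, although their summits lay over 2 kb from the start that the authors' annotation assigned, and 22 of these 26 carried H3K4me3. A stretch of at least 100 bases was covered in 19 regions, 12 beside the start of a long non-coding RNA and 7 beside a start of a protein-coding gene. Their fold ran from 2.39 to 8.06 with a median of 4.20, so the strong regions of the set are not among them. The stretches were searched on both strands for AGGTGT and GGTGTGA, overlapping forms of the T-box motif. The first pair below is shown because only these 2 of the 19 held such a match. Gm35228 belongs to the strongest peak of the 19, and the last pair are stretches that fill the whole window, one near Meis1 and one inside Bri3. Each is the part of the peak upstream of the start, 5′ to 3′ on the strand of the named gene, from RefSeq (GRCm38.p6, the assembly of mm10). Matches to AGGTGT and GGTGTGA on either strand are in capitals.
Arrdc3: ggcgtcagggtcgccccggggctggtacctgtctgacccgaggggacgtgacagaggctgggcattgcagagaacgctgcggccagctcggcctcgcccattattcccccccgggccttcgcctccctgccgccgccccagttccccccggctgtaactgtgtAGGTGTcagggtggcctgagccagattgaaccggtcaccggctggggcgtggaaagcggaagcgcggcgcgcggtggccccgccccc
Gm31342: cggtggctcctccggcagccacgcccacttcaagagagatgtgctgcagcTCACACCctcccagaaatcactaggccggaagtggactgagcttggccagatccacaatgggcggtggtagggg
Gm35228: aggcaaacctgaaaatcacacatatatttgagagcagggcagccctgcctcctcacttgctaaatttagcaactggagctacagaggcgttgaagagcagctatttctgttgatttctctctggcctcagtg
8430419K02Rik: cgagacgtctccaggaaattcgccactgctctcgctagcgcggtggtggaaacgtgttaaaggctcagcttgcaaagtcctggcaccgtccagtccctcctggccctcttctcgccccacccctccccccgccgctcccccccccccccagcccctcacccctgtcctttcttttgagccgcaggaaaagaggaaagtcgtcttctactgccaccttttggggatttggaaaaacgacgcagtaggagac
Gm38675: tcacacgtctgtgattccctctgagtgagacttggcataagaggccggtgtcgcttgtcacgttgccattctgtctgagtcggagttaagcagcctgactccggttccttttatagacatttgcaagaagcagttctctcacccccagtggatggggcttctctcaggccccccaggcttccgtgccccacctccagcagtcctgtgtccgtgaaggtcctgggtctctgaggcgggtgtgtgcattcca

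The Arrdc3 stretch (chr13:80885845-80886094, plus strand) holds AGGTGT 1 time and is 71.6% G and C. Its peak had 3.65-fold enrichment (2.52 to 5.13, 31 fragments), with the summit 2461 bp from the assigned start but 212 bp from a RefSeq start of Arrdc3, an arrestin-domain gene. The Gm31342 stretch (chr15:67039469-67039592, plus strand) holds GGTGTGA on the opposite strand, shown as its complement, in a 4.77-fold peak (3.13 to 7.01) 69973 bp upstream of the assigned start. In the stretches of Gm35228 (chr17:65101393-65101524, minus strand, 8.06-fold, 5.18 to 12.0), 8430419K02Rik (chr11:18877611-18877860, minus strand, 4.40-fold, 2.67 to 6.90) and Gm38675 (chr5:144258231-144258480, plus strand, 5.08-fold, 3.26 to 7.57) neither set of letters occurs. Each of these holds a looser form, GTGTNA, 1 time, which is not in capitals. The Gm31342 and Gm35228 stretches do not include the summits of their peaks, so they do not show the sequence at the summit. The 8430419K02Rik region lay 2777 bp from the body of Meis1, a homeobox cofactor gene, and 141318 bp from its assigned start. Over all 32817 RefSeq windows of 250 bases, AGGTGT occurred in 11.8% and GGTGTGA in 3.33%. AGGTGT occurred in 187 of 1094 windows with any TBX5 summit (17.1%, 14.9 to 19.5) and in 2 of 16 windows with a summit of the regions described here (12.5%, 1.55 to 38.3), a number too small to place them. GGTGTGA occurred in 4.94% of the windows with any summit (3.73 to 6.39) and in 0 of the 16. The looser form GTGTNA went the other way, in 25.7% of the windows with any TBX5 summit (23.1 to 28.4) against 30.4% of all windows. It occurred in 7 of the 16 (43.8%, 19.8 to 70.1), above both shares but with an interval that holds them. The 16 windows belong to 14 genes and some overlap each other. Sequence of the other regions was not used here.

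H3K4me1 covered nearly the whole set, as it did all active distal peaks, and H3K4me3 a large minority. H3K4me1 was present at 1011 of 1062 regions (95.2%, exact 95% interval 93.7 to 96.4), beside 94.9% of all active distal peaks, and H3K4me3 at 400 (37.7%, 34.7 to 40.7). H3K4me1 alone marked 662 regions (62.3%), both marks 349 (32.9%) and H3K4me3 alone 51 (4.80%). No region lacked both marks (0 of 1062, which allows a share of up to 0.347% by the exact interval). Of the 2805 active distal peaks without TBX3 and H3K9ac, 165 lacked both H3K4 marks (5.88%, 5.04 to 6.82), as did 16 of the 1683 with H3K9ac alone (0.951%, 0.544 to 1.54). H3K9me3, a mark of heterochromatin, was at none of the 1062 regions, and with 30 of all 12436 peaks (0.241%) it was too rare for this count to set them apart.

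The H3K4me3 share followed H3K9ac far more than TBX3. It was 34.2% (31.9 to 36.5) at the 1683 peaks with H3K9ac but no TBX3. At peaks without H3K9ac it was 1.75% (0.906 to 3.03, 12 of 687) with TBX3 and 2.46% (1.92 to 3.10) without. The intervals of the 2 H3K9ac classes overlapped, and both lay far above those of the 2 classes without H3K9ac. H3K27ac was found in both of its files at 96.0% (94.7 to 97.1) of the regions, against 92.4% (91.0 to 93.6), 81.2% (78.1 to 84.1) and 68.5% (66.8 to 70.2) for H3K9ac alone, TBX3 alone and neither. Intervals treat peaks as independent and cover counting error only.

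**Figure D1:**
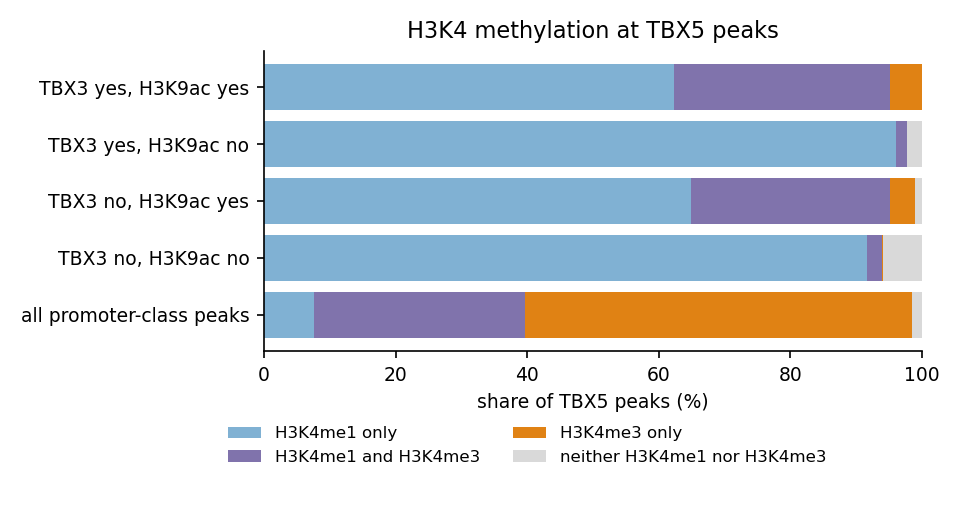
Share of TBX5 peaks (horizontal axis, percent) with H3K4me1 only, both H3K4 marks, H3K4me3 only or neither, for the 4 classes of active non-promoter peaks and all promoter-class peaks. The 2 classes with H3K9ac have 37.7% and 34.2% of peaks with H3K4me3, against 1.75% and 2.46% without H3K9ac and 90.9% at promoters.

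Regions with H3K4me3 lay nearer to the assigned start, less often inside a gene body, and had a somewhat lower TBX5 fold. Their median distance to the assigned start was 15091 bp, against 22054.5 bp for the 662 regions without the mark. The body of a protein-coding gene held 216 of the 400 (54.0%, 49.0 to 59.0) and 433 of the 662 (65.4%, 61.6 to 69.0). Their median fold was 5.16 (quartiles 4.14 to 7.15) against 6.04 (4.71 to 8.69), with a median background of 3.53 against 3.21 and a median pileup of 23.5 against 25 fragments. The order was the same at peaks with H3K9ac but no TBX3, so it is not particular to the regions. With H3K4me3 against without, those peaks had a median distance of 19309 against 25068.5 bp. Gene bodies held 56.0% against 69.2% of them, and the median fold was 5.46 against 5.93. H3K4me3 was present at 51.5% (45.7 to 57.2) of the 307 regions 2 to 10 kb from a start. It was present at 32.1% (28.2 to 36.3) of those at 10 to 50 kb, at 29.9% (22.7 to 38.0) of those at 50 to 100 kb and at 35.4% (25.0 to 47.0) of the 79 regions beyond 100 kb. A start in RefSeq that the authors' annotation may not hold lay within 2 kb of 49 of 387 H3K4me3 regions (12.7%, 9.52 to 16.4) and of 24 of 636 others (3.77%, 2.43 to 5.56), leaving out the 39 regions of the set on a chromosome that the promoter table used here does not cover. For starts of protein-coding genes alone the counts were 12 and 2. Most regions with H3K4me3 thus had no RefSeq start within 2 kb. The RefSeq starts used here miss some that the authors' annotation holds. Of promoter-class peaks only 2314 of 2948 (78.5%) had one within 2 kb, so a region without one may still lie near a start.

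The regions lay nearer to gene starts than other active distal peaks. The median distance of the summit to its assigned start was 19851 bp (quartiles 8582 to 44763), against 28246 bp with TBX3 alone, 23153 bp with H3K9ac alone and 41077 bp with neither. Between 2 and 10 kb lay 307 regions (28.9%), between 10 and 50 kb 529 (49.8%), between 50 and 100 kb 147 (13.8%) and beyond 100 kb 79 (7.44%, 5.93 to 9.18). With H3K9ac alone 26.4% (24.3 to 28.6) lay between 2 and 10 kb and 10.4% (8.98 to 12.0) beyond 100 kb, and both intervals overlapped those of the regions. Beyond 100 kb lay 14.8% (12.3 to 17.7) with TBX3 alone and 25.1% (23.5 to 26.7) with neither TBX3 nor H3K9ac. Upstream of the assigned start were 436 regions (41.1%, 38.1 to 44.1), against 41.1% of the peaks with neither. The body of a protein-coding gene held 649 regions (61.1%, 58.1 to 64.1), near the 58.8% of all active distal peaks and the 64.7% with H3K9ac alone, and 272 (25.6%) had no such gene within 10 kb.

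The promoter limit cuts through a continuous range. The regions just outside the 2000 bp limit were a 4.27-fold peak 2033 bp upstream of a start at Carns1, a 2.39-fold peak 2053 bp downstream of a start at Fth1 and a 4.12-fold peak 2078 bp upstream of a start at Dapk3. Just inside it, among active promoters with TBX3 and H3K9ac, were a 7.06-fold peak 1999 bp upstream at Mknk2, a 25.6-fold peak 1987 bp downstream at Josd2 and a 4.71-fold peak 1984 bp downstream at Vldlr. The Fth1 summit lay 7 bp from a RefSeq start of Fth1, the ferritin heavy chain gene.

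Distal peaks with H3K9ac overlapped TBX3 regions more often than those without. Of the 2745 with the mark 1062 did (38.7%, 36.9 to 40.5), and of the 3492 without it 687 did (19.7%, 18.4 to 21.0). These counts define the set and are given as a description. The order held in each of 4 distance classes, from 40.8% against 24.3% at 2 to 10 kb to 31.1% (25.5 to 37.2) against 12.7% (10.4 to 15.1) beyond 100 kb. It held in each of 5 equal groups by fold, with 38.3% against 21.5% in the weakest and 36.3% against 16.8% in the strongest. In 5 groups by peak width, chosen after seeing the data, the share with H3K9ac ran from 28.7% (24.9 to 32.7) in the narrowest to 45.3% (41.0 to 49.6) in the fourth, while that without stayed between 17.9% and 21.5%. The part of peak width in the TBX3 share was not tested further. For scale, TBX3 overlap was 45.0% at the 3055 promoter-class peaks.

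**Figure D2:**
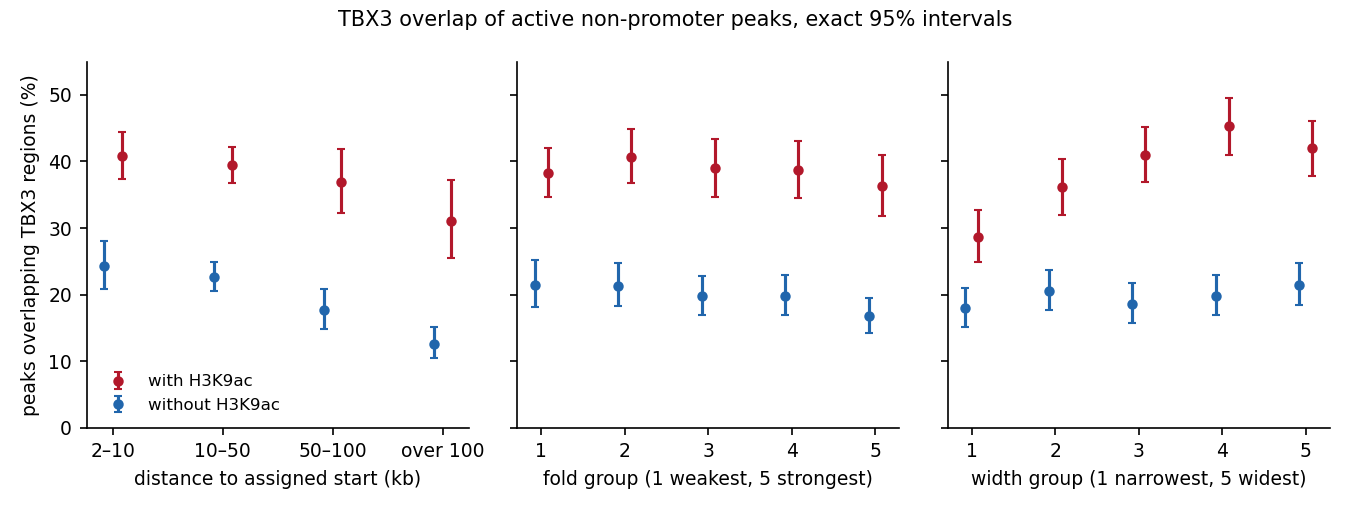
Share of active non-promoter peaks overlapping TBX3 regions (vertical axis, percent) with and without H3K9ac, by distance to the assigned start, by fold group and by width group; bars are exact 95% intervals. Peaks with H3K9ac lie above those without in every group, with 31.1% against 12.7% beyond 100 kb.

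TBX5 enrichment at the regions was moderate. The fold over background had a median of 5.67, with quartiles of 4.51 and 8.16 and a range from 2.32 to 63.5, beside a median of 5.67 over all 12436 peaks. A fold of at least 10 was reached by 179 regions (16.9%, 14.7 to 19.2), close to the 16.7% of all peaks, and −log10 q of at least 10 by 507 (47.7%, 44.7 to 50.8), against 41.5% of all peaks. Of all active distal peaks 49.5% reached that q, with 51.5%, 46.0% and 51.8% for TBX3 alone, H3K9ac alone and neither. Active distal peaks with neither TBX3 nor H3K9ac had a median of 6.59, and 25.6% (24.0 to 27.2) of them reached 10. With TBX3 alone the median was 6.28 and 21.5% (18.5 to 24.8) reached 10, and with H3K9ac alone 5.75 and 18.2% (16.4 to 20.2).

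The number of fragments at the summit did not have the same order as the fold. The median pileup, the pooled ChIP fragments over the summit, was 24 at the regions, 23 with TBX3 alone and 22 in the other classes. The median background was 3.53 at the regions, 2.83 in each class with TBX3 or H3K9ac alone and 2.35 with neither. The regions were also wider, at a median of 285 bp (quartiles 225 to 361), against 269, 262 and 264 bp. They were chosen by overlap with TBX3 and H3K9ac regions, and how far width entered that choice was not tested. Across the 1062 regions fold and width had a rank correlation of 0.58, and fold and distance to the start 0.05. Both are descriptions over peaks of 1 pooled call, in which fold and width come from the same fragments.

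**Figure D3:**
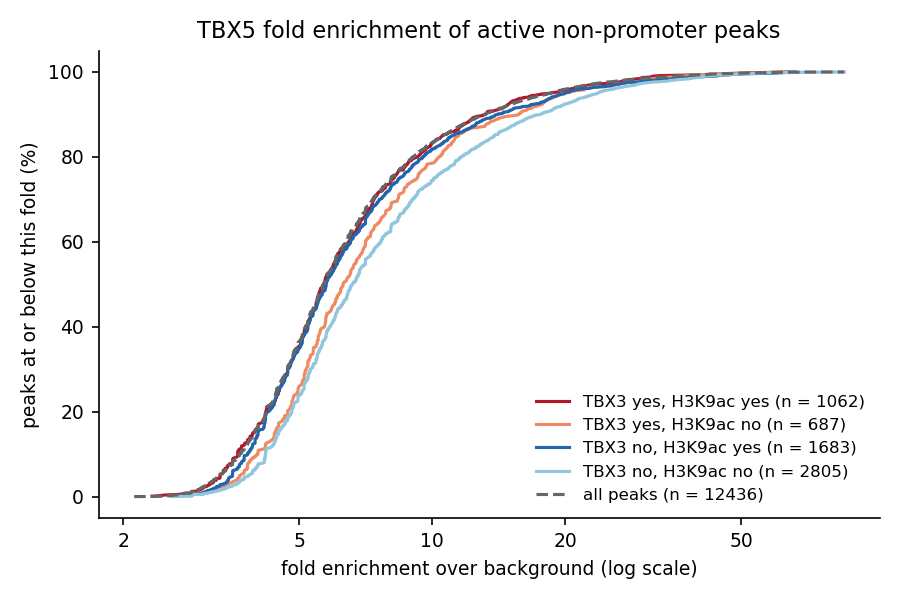
Cumulative share of peaks (vertical axis, percent) at or below a given fold enrichment (horizontal axis, log scale) for the 4 classes of active non-promoter peaks and for all peaks. The curve of the 1062 regions (median 5.67) runs close to that of all peaks, and the curve of peaks with neither TBX3 nor H3K9ac (median 6.59) lies to the right.

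The 12 strongest regions ranged from 31.4-fold to 63.5-fold. All 12 carried H3K4me1, 3 carried H3K4me3, 10 lay over 10 kb from the assigned start and 7 lay in a gene body. The strongest, at chr5:111535635-111536365, lay 79091 bp from the body of Mn1, a transcriptional coregulator gene, with 63.5-fold enrichment (55.8 to 72.0) from 242 fragments. The next, at chr10:45229855-45230459, lay 59140 bp from Popdc3, a Popeye-domain gene of striated muscle, with 58.8-fold (51.4 to 67.0). Regions are named after the closest gene only to locate them, and no target gene was measured.

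In gene bodies, the strongest was a 53.7-fold region (46.4 to 61.8) in Lclat1, a cardiolipin acyltransferase gene, at chr17:73225875-73226370. Kcng2, a voltage-gated potassium channel subunit, held a 49.5-fold region (41.9 to 58.1), and Mical3, an actin-acting monooxygenase, one of 44.6-fold (37.9 to 52.2). Asb2, a ubiquitin ligase subunit that targets filamins, held a 43.9-fold region (37.5 to 51.1) 2237 bp downstream of a start, and it carried H3K4me3. Cox17, a copper chaperone for cytochrome oxidase, held one of 36.6-fold (30.7 to 43.2) that carried H3K4me3 as well.

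The remaining 5 lay near Ttc29 (47.1-fold, 224756 bp away), Gm30733 (42.7-fold, 113069 bp away), Fos, Trio and Gnai2. The Fos region, 37686 bp from this immediate early gene, had 33.0-fold enrichment (28.5 to 37.9) and was the third of the 12 with H3K4me3. Trio, a guanine exchange factor gene, held a 31.9-fold region and Gnai2, an inhibitory G protein gene, one of 31.4-fold (26.6 to 36.9). At the other end of the range stood peaks of 2.32-fold (1.48 to 3.49) in Pgpep1, 2.39-fold (1.51 to 3.64) in Fth1 and 2.43-fold (1.56 to 3.62) in Iqsec1. The widest regions were 1399 bp near Wee1 (8.62-fold), 1040 bp near Hopx (14.1-fold), a cardiac homeodomain-only gene 15724 bp away, and 960 bp in Rbm24 (26.9-fold), a muscle splicing regulator.

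**Figure D4:**
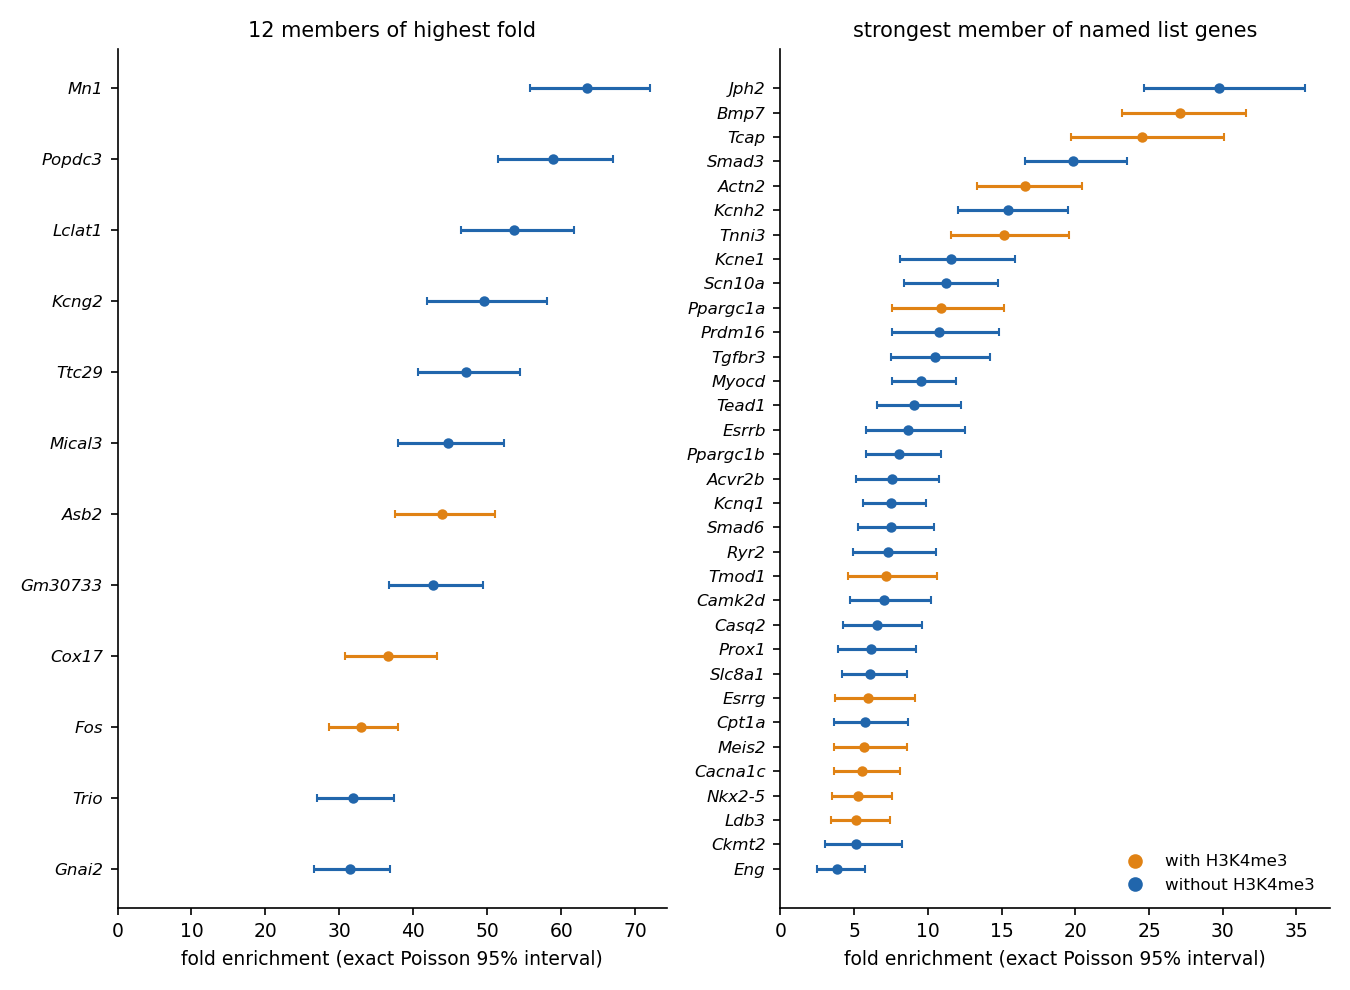
Fold enrichment (horizontal axis) with exact Poisson 95% interval for the 12 strongest regions, named by the nearest gene (left), and for the strongest region within 10 kb of genes named in the text from 6 lists (right); orange marks H3K4me3. The 12 strongest span 31.4-fold to 63.5-fold, and the list genes run from 3.87-fold at Eng to 29.7-fold at Jph2.

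Genes were linked to a region when a summit lay in the gene body or within 10 kb. Of 21627 protein-coding genes 732 (3.38%) had such a region, and of the 6474 genes with any TBX5 summit in that window 11.3%. Of the 732 genes 316 (43.2%) also had a promoter-class TBX5 summit, and 159 had one that overlapped TBX3. A promoter-class summit was found for 57.8% of all genes with any TBX5 summit in the window. That base holds genes counted only through a promoter-class summit, so these shares cannot be compared directly. Genes with a region were long, with a median body of 51.7 kb against 17.3 kb for all genes. In 10 lists, of cardiomyocyte, conduction, signalling, metabolic and chromatin genes among others, 52 of 289 distinct genes had a region (18.0%, 13.7 to 22.9). Of the 201 with any summit 25.9% had one. Not all of these genes are specific to the heart. The median body of these 289 genes was 40.6 kb. No enrichment test was made, and the part of gene length in these shares was not tested.

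Sarcomere genes, which encode the contractile unit, had a region in 8 of 44 cases (18.2%), while 38 had some TBX5 summit. The strongest was linked to Tcap, the telethonin gene, at chr11:98394146-98394757, with 24.5-fold enrichment (19.7 to 30.1), but it lay 9545 bp from Tcap and nearer to Pgap3. Actn2, the Z-disc actinin, held a 16.6-fold region (13.3 to 20.5) 2761 bp downstream of its start, with H3K4me3 and without H3K4me1. The 15.2-fold region (11.6 to 19.6) counted for Tnni3, cardiac troponin I, lay 8186 bp away and nearest to Tnnt1. Weaker regions were counted for Tmod1 (7.13-fold), Ldb3 (5.15-fold), Ankrd1 (5.12-fold) and Tpm1, and Tmod1 and Ldb3 had 3 regions each. Ttn, Myh6, Myh7, Myl2 and Tnnt2 had TBX5 summits, but none that belonged to the set.

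Ion channel and conduction genes had a region in 7 of 32 cases (21.9%). Kcnh2, a repolarising potassium channel, had 3 regions of its 11 summits, the strongest 15.4-fold (12.1 to 19.5) at chr5:24337206-24337805 and 7987 bp upstream of the assigned start. Scn10a, a sodium channel gene, held an 11.3-fold region (8.41 to 14.8) at chr9:119634184-119634575. Kcne1 (11.5-fold, 8.14 to 15.9), Kcnq1 (7.52-fold), Slc8a1 (6.11-fold) and Cacna1g had regions as well. The strongest regions of Kcnh2, Scn10a, Kcne1, Kcnq1 and Slc8a1 all lacked H3K4me3. Gja5, Hcn4 and Gjd3 had TBX5 summits that did not belong to the set.

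Calcium handling genes had a region in 5 of 24 cases (20.8%). Jph2, a junctional membrane protein gene, had 4 regions with 29.7-fold (24.6 to 35.6), 13.1-fold, 13.0-fold and 8.29-fold enrichment, none with H3K4me3. Ryr2 (7.32-fold, 4.91 to 10.5), Camk2d (7.06-fold), Casq2 (6.53-fold) and Cacna1c (5.52-fold) had weaker ones. Cacna1c had 2 regions among 16 summits, and its stronger one lay nearest to Dcp1b.

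Cardiac transcription factor genes had a region in 8 of 48 cases (16.7%). Prdm16 held one of 10.8-fold (7.58 to 14.8), Myocd, a coactivator of serum response factor, one of 9.55-fold (7.55 to 11.9) and Prox1 one of 6.12-fold. Tead1, which binds DNA in the Hippo pathway, had 4 regions, of 9.05-fold (6.53 to 12.2), 7.36-fold, 5.38-fold and 4.71-fold, among 6 summits. The strongest regions of Meis2 (5.71-fold), Nkx2-5 (5.26-fold, 5607 bp away), Gata4 (5.04-fold) and Meis1 (4.40-fold) all carried H3K4me3, and those of Prdm16, Myocd, Tead1 and Prox1 did not. The Nkx2-5 and Meis2 regions lacked H3K4me1. The summit of the Meis2 region lay 80 bp from a RefSeq start of a long non-coding RNA. That of the Meis1 region lay 41 bp from such a start, so both may mark starts of other transcripts. Tbx3, Tbx5 and Tbx20 had TBX5 summits within 10 kb, but none in the set.

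Genes of BMP and TGF-beta signalling had a region in 6 of 35 cases (17.1%). The Bmp7 region, 4850 bp from this ligand gene at chr2:172862742-172863425, had 27.1-fold enrichment (23.2 to 31.5) from 167 fragments. Smad3, a signal transducer, held one of 19.8-fold (16.6 to 23.5). The receptor genes Tgfbr3 (10.5-fold, 7.51 to 14.2) and Acvr2b (7.56-fold), the inhibitory Smad6 (7.50-fold) and the coreceptor Eng (3.87-fold) followed. Metabolic genes and their regulators had a region in 7 of 33 cases (21.2%). The coactivator Ppargc1a led with 10.9-fold (7.60 to 15.2), ahead of Esrrb (8.68-fold), Ppargc1b (8.07-fold), Esrrg (5.97-fold), Cpt1a (5.75-fold), Ckmt2 (5.13-fold) and Rxra (4.51-fold).

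Chromatin regulators had a region in 4 of 25 cases, with Kdm6b, an H3K27 demethylase (10.8-fold, 8.03 to 14.3), and Hdac9 (8.33-fold) ahead of Chd7 (7.42-fold) and Arid1a (4.71-fold). Hypertrophy and stress genes had one in 6 of 27, led by Rcan1, a calcineurin inhibitor (11.3-fold, from 58 fragments), followed by Camk2d, Prkca (5.65-fold), Pde4d (5.45-fold), Ankrd1 and Ccn1 (4.27-fold). Septation and congenital heart disease genes had one in 6 of 32, with Rbm20 (20.6-fold, 16.9 to 24.9) far ahead of Chd7, Nkx2-5, Gata4, Ptch1 (4.21-fold) and Sos1 (3.47-fold).

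Lists of other cell types, some of them also of the heart, and of other tissues together had a region in 6 of 117 genes (5.13%, 1.90 to 10.8). These are 6 of their 30 genes with any TBX5 summit. The exact interval of that share (7.71% to 38.6%) holds the 25.9% of the 10 lists above. Endocardial and endothelial genes had a region in 3 of 20 cases, at Nrg1 (7.23-fold), Erg (3.97-fold) and Eng, epicardial and fibroblast genes in 1 of 20 (Col1a1, 4.37-fold, 7141 bp away) and smooth muscle genes in 2 of 13 (Synpo2, 9.14-fold, and Smtn, 4.12-fold). Genes of blood (0 of 20), neurons (0 of 22) and hepatocytes (0 of 23) had none, a count that allows up to 16.8%, 15.4% and 14.8% by the exact interval and so does not separate them from the 3.38% of all genes. Among 14 cardiomyocyte marker genes 13 had a TBX5 summit and 3 had a region. The list shares depend on the strength asked of a region. With only regions of −log10 q of at least 10, the share of all genes was 1.77%, against 3.38% without that limit. It was 11.4% for sarcomere genes, 6.25% for transcription factors, 9.09% for metabolic genes, 7.41% for hypertrophy genes and 6.25% for septation genes. Each of these, like that of all genes, was over 1.5 times lower than above. Conduction (18.8%), calcium handling (16.7%), BMP and TGF-beta (14.3%) and chromatin genes (12%) fell less. Cardiomyocyte marker (21.4%) and smooth muscle genes (15.4%) kept their share. Endocardial genes then had a region in 1 of 20 cases and epicardial genes in 0 of 20. Lists share members, among them Eng, Ryr2, Actn2 and Chd7.

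Some genes held several regions. At least 2 were found for 140 genes and at least 3 for 35. Rbm20, which regulates splicing of titin, had 7 among 16 summits, with folds of 20.6, 8.69, 6.87, 5.98, 5.52, 4.79 and 4.44. Gse1 also had 7, among 17 summits, from 3.63-fold to 20.1-fold (16.5 to 24.3), and only the weakest carried H3K4me3. Tns1, a focal adhesion gene, had 5 (3.97-fold to 9.41-fold). Jph2, Nuak1, a kinase gene (3.56-fold to 15.0-fold), Mical2 (4.85-fold to 10.5-fold), Tead1 and Rere (3.19-fold to 7.14-fold) had 4 each, as did 4 further genes.

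The regions had other TBX5 peaks close by. Another TBX5 summit lay within 10 kb of 524 regions (49.3%, 46.3 to 52.4), against 48.1% (45.7 to 50.5) with H3K9ac alone, 31.3% (27.8 to 34.9) with TBX3 alone and 32.2% (30.5 to 34.0) with neither. The nearest one belonged to the same set in 145 of these 524 cases (27.7%, 23.9 to 31.7), was an active distal peak with H3K9ac but no TBX3 in 183 (34.9%) and was an active promoter in 79 (15.1%). For peaks with H3K9ac alone the shares of these same classes were 21.8% (19.0 to 24.8), 36.1% and 13.7%. A promoter-class summit lay within 10 kb of 122 regions (11.5%, 9.63 to 13.6), against 6.38% (5.79 to 7.02) of all active distal peaks. It was 10.0% of all peaks, which include the promoter-class peaks themselves. The share was 9.80% (8.42 to 11.3) with H3K9ac alone, an interval that overlapped that of the regions. It was 4.80% (3.33 to 6.68) with TBX3 alone and 2.78% (2.20 to 3.46) with neither. On the autosomes the regions made up from 12.5% (chromosome 13) to 21.8% (chromosome 11) of the active distal peaks, and on the X chromosome 3 of 55 (5.45%, 1.14 to 15.1).

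Dense groups were few. With at least 3 regions whose neighbouring summits lay within 10 kb, 12 groups with 36 regions were found, all of 3. In Jph2 the group spanned 9.52 kb, with folds of 13.0, 8.29 and 29.7 and a further TBX5 peak of 13.6-fold between them that had H3K9ac but no TBX3 overlap. In Dlc1, a GTPase-activating gene, it spanned 3.27 kb, with a middle peak of 13.3-fold (9.96 to 17.5) and flanks of 5.45-fold and 5.67-fold.

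A group at chr4:147963620-147969747 had folds of 9.56 (6.59 to 13.4), 12.6 (8.97 to 17.2) and 9.47 (7.30 to 12.1). It lay between 2 genes at nearly the same distance, 2510039O18Rik, 16443 bp from its nearest summit, and Nppb, the gene of B-type natriuretic peptide, 16205 bp away. Nppa, of atrial natriuretic peptide, was 31141 bp away. No region of the group counted for any of these genes under the 10 kb window. In Atoh8 (6.30-fold, 9.42-fold and 5.11-fold) all 3 regions carried H3K4me3. In Rere 2 summits of 3.19-fold and 7.14-fold lay at one side and one of 4.58-fold at the other.

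**Figure D5:**
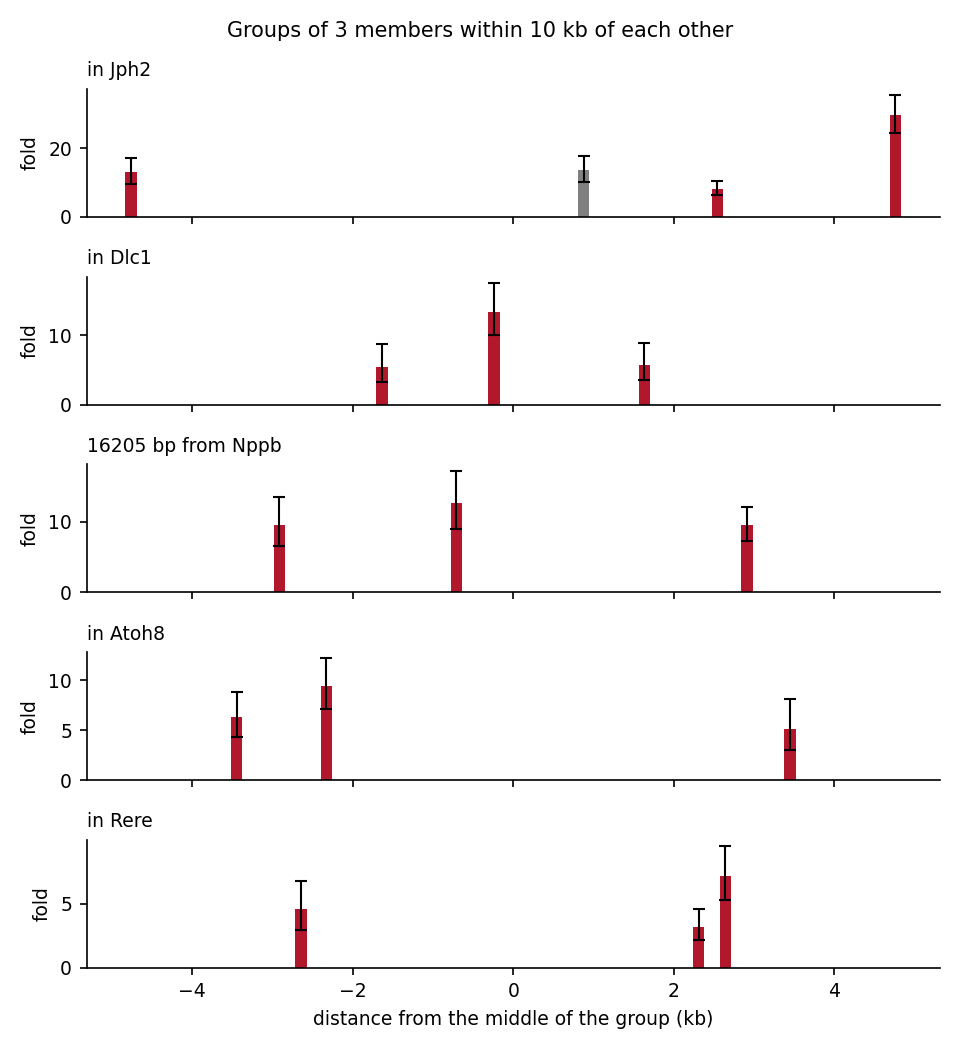
TBX5 fold enrichment (vertical axis) by distance from the middle of the group (horizontal axis, kb) in 5 of the 12 groups of 3 regions; red bars are the regions, the grey bar is a TBX5 peak outside the set, and error bars are exact Poisson 95% intervals. The Jph2 group holds the highest fold, 29.7, and the group near Nppb has 3 peaks of similar fold, from 9.47 to 12.6.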

How the data were processed

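TBX5 ChIP-seq of E14.5 mouse hearts, with 2 ChIP samples and 1 input sample and single-end reads of 50 bases, was used. Bowtie2, SAMtools, MACS2 and ChIPseeker with mm10 are named, per the submitters' processing notes, with versions and settings not given in the sources used here. Peaks were called once on pooled samples, per the labels' descriptions. The authors deposited for each peak a fold (ratio of ChIP to local background at the summit), −log10 p and −log10 q, and a score of 10 times −log10 q, truncated. A deposited table adds the distance to a start, a chromatin class, and overlap with 6 histone marks and TBX3 regions. For the marks and TBX3, neither source tissue and stage nor the overlap rule is known here.

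The files hold no read totals, so depth per sample is unknown. Pileup and background were solved from the fold and −log10 p. Whole-number pileups matched within 0.0005 for all 12436 peaks, and 100% of 916 simulated pileups were recovered. Intervals beside folds are exact 95% Poisson intervals of the pileup with background fixed, and those of shares are Clopper-Pearson. They cover counting error only. A mark counted if either of its files had it. Gene bodies of 21627 protein-coding symbols came from RefSeq (GRCm38.p6), and 1 list entry did not match. Coordinates are 1-based. The regions and gene lists were chosen with earlier results of these data known. Named were the 12 highest folds, up to 6 genes per list by fold, 8 genes with most regions (ties by fold), the 3 weakest, the 3 widest and 5 groups; regions next to the promoter limit, Cacna1g, Tpm1, Rxra, Meis1 and Gata4 among the factors, and genes without a region were added after seeing values. No region carried H3K27me3. Some genes that these rules select are not reported here. Planned motif counts around all summits were not run, since they need a genome. Alternatives were a stricter q, distance, merging, mark files, gene windows, and groups by fold, distance and width. Computation used scipy 1.17.1, pandas 2.3.3 and numpy 2.4.6 under Python 3.11.15, and plots matplotlib 3.10.9.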

Additional observations from a re-analysis of the deposited data

How the results depend on the processing

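No paired analysis was possible because the peaks were called on pooled replicates, and for the same reason no replicate could be left out. The motif alternatives were not run, as they need a genome. With only peaks of −log10 q of at least 10, the median fold of the regions was 8.34, the share with a fold of at least 10 was 35.3% and the median width 339 bp. That threshold selects stronger peaks by its construction. A distance of at least 10000 bp and counting summits within 1000 bp once left these values inside their intervals. Requiring both region files of a mark gave 88.8% with H3K4me1, 26.3% with H3K4me3 and 96.0% with H3K27ac. Genes with a region numbered 1693 within 50 kb and 382 with the stricter q, against 732, and 511 in gene bodies or 821 by nearest gene. Within 50 kb 7.83% of all genes had a region, against 3.38% within 10 kb. Shares over 1.5 times higher there were 35.7% for cardiomyocyte marker, 29.5% for sarcomere and 27.1% for transcription factor genes. So were 28.6% for BMP and TGF-beta, 37.0% for hypertrophy and 30.8% for smooth muscle genes. Each of these list shares rose by a smaller factor than that of all genes. Among neuronal genes 2 of 22 had a region within 50 kb. In gene bodies alone the sarcomere share was 11.4%, and no epicardial gene had a region.

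TBX3 shares moved out of their interval as follows. With H3K9ac they were 40.7% and 36.3% in fold groups 2 and 5, 40.8% at 2 to 10 kb, 31.1% beyond 100 kb and 28.7%, 36.1%, 41.0%, 45.3% and 41.9% in width groups 1 to 5. Without H3K9ac they were 21.5%, 21.4% and 16.8% in fold groups 1, 2 and 5, 24.3%, 22.6%, 17.7% and 12.7% in the 4 distance classes from near to far, and 17.9% and 21.5% in width groups 1 and 5. The cause was not tested. In every fold, distance and width group the share with H3K9ac was the higher one. Width groups were added after seeing the data.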
